A study of Mus musculus with 8 samples.

Results

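Antioxidant and redox genes were followed in neurospheres grown from mice without the forkhead transcription factor FoxO3. The list of 35 genes was set by gene name and not by a threshold on measured values, although earlier results of these data were known when it was drawn up. It covers the superoxide and peroxide enzymes, the thioredoxin system, the glutathione system, the NRF2 pathway and the metallothioneins. Of the 35 genes, 32 were measured among 18193 genes in all. Prdx1, a peroxiredoxin, has 5 probe sets that the platform annotation shares with another gene, and for the peroxiredoxins Prdx5 and Prdx6 the annotation used here gives no probe set, so these 3 were not analysed here.

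The study compared secondary neurospheres, floating spheres of neural stem and progenitor cells after passage, from the forebrains of FoxO3 null mutant and wild type mice, both of the FVB/N strain. Both genotypes grew under the same conditions. The serum-free medium held bFGF and EGF, each at 20 ng/ml, and B27 supplement without vitamin A, a supplement that as sold contains antioxidants. Spheres were harvested 6 days after seeding 50000 cells/ml. The title places the study in adult neural stem cell maintenance, but the labels give neither age nor sex, nor do they say whether spheres of several mice were pooled. RNA was hybridised to 8 Affymetrix arrays, 4 per genotype, and their numbers place 2 arrays per genotype in set 1 and 2 in set 2. What distinguishes the sets, and whether arrays came from separate cultures, is not stated, so p-values reflect only how far these arrays spread, and that spread may be technical.

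Superoxide dismutases turn superoxide into hydrogen peroxide, which catalase, peroxiredoxins and glutathione peroxidases then reduce. Peroxiredoxins draw on thioredoxin and glutathione peroxidases on glutathione, and both cofactors are restored by reductases that use NADPH. The transcription factor NRF2, held in check by KEAP1, drives many of these genes through the antioxidant response element, while metallothioneins bind zinc and copper and are induced through metal response elements. FoxO factors are known to activate Sod2, Cat and the sestrins in several cell types, and antioxidant defence has been described as one of their roles in stem cells.

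Promoter windows of 300 bases (250 before to 50 after the start, RefSeq, GRCm38.p6) were found for 30 of the 35 genes. Those of Txnip and Glrx are shown because they are the genes that passed the genotype test, Srxn1 for its antioxidant response elements and Mt2 for its metal response elements. Capitals mark matches on either strand. These are to GTAAACA, a FoxO motif, in Txnip, and to the metal response motifs TGCACNC or TGCGCNC in Glrx. In Srxn1 they are to the antioxidant response motifs TGACNNNGC or TGAGNNNGC, and in Mt2 to the metal and the antioxidant response motifs. The Txnip and Srxn1 windows each also hold 1 metal response match, left in lower case.
Txnip, chr3:96557707-96558006, plus strand: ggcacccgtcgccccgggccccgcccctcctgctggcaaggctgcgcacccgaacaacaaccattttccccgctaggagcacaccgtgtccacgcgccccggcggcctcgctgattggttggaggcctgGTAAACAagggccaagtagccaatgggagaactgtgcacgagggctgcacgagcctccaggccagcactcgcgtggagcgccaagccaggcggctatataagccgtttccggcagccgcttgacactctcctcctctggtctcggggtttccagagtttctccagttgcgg
Glrx, chr13:75839635-75839934, plus strand: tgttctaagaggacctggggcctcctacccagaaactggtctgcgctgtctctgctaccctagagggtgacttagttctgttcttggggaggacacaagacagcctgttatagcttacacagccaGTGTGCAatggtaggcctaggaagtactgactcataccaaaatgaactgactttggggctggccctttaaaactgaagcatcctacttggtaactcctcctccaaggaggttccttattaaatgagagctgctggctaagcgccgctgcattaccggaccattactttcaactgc
Srxn1, chr2:152105274-152105573, plus strand: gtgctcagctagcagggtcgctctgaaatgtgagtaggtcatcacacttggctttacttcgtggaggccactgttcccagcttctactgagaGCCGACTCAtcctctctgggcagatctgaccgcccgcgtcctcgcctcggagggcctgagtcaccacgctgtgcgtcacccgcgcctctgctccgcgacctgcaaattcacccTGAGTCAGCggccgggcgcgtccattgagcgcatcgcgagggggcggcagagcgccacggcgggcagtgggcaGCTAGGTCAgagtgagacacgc
Mt2, chr8:94172368-94172667, plus strand: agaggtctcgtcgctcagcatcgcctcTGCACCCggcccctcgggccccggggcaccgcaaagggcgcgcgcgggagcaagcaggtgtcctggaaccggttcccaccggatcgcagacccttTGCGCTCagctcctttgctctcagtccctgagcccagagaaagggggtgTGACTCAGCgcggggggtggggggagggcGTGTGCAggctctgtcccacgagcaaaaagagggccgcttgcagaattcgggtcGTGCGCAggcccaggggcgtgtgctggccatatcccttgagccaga

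GTAAACA was present for 1 of the 30 genes, Txnip (position -121 from the start), against 3.65% of 32851 single windows of all genes. A listed gene with several windows counted if any of them matched, so shares of genes and of windows are not counted alike. An antioxidant response motif was present for 10 of 30 genes, against 27.8% of all windows, and Srxn1 held 3 matches. A metal response motif was present for 11 of 30 genes, against 25.7% of all windows. Mt2 held 4 of these, and Mt1 and Gclm held 3 each. Metal and antioxidant response matches do not overlap in the Mt2 window. A match is a string of letters in this window and shows no binding.

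Foxo3 was lower in the arrays labelled FoxO3 null. Its brightest probe set, 1434831_a_at, lay between 10.00 and 10.32 in wild type and between 8.86 and 9.14 in FoxO3 null arrays (log2). Probe set 1434832_at averaged 9.32 ± 0.09 and 8.25 ± 0.33 (SD, n = 4 each), and the dim 1450236_at averaged 5.24 ± 0.18 and 5.57 ± 0.06. The labels do not give the deleted part of the gene. The marker list of neural stem and progenitor cells had array means of 10.45 to 10.69 over its 8 genes. Those of microglia and macrophages (5.23 to 5.46), erythroid cells (5.02 to 5.32) and endothelial and mural cells (5.98 to 6.24) lay below the array medians of 6.28 to 6.31, although probe brightness differs between genes. Neurospheres mix cell types, and fewer cells of a type cannot be told apart from less RNA per cell.

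Most antioxidant and redox genes differed little between the genotypes. Of the 32 measured, 2 fell in FoxO3 null arrays, Txnip and Glrx, and 0 rose, which is 6.25% against 1.6% of all genes, where 1.17% fell and 0.429% rose (limma with Benjamini-Hochberg adjustment over all genes, adjusted p under 0.05). At an unadjusted p under 0.05 there were 9, of which 4 were higher and 5 lower, which is 28.1% against 15.5% of all genes. Positive fold changes were found in 17 of 32 and in 54.2% of all genes. The median log2 fold change was 0.02, beside 0.0091 for all genes. For 31 of the 32, all but Txnip, the 95% interval of the fold change stayed within 1.5-fold either way. The arrays of the genotypes did not overlap in 5 of the 32 (15.6%, against 3.72% of all genes), namely Txnip, Mt1 and Mt2 on the lower side and Txnrd1 and Nqo1 on the higher side. With the arrays quantile normalized again, 3 passed, 2 lower and 1 higher. The plot of genotype differences by role shows these values.

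**Figure D1:**
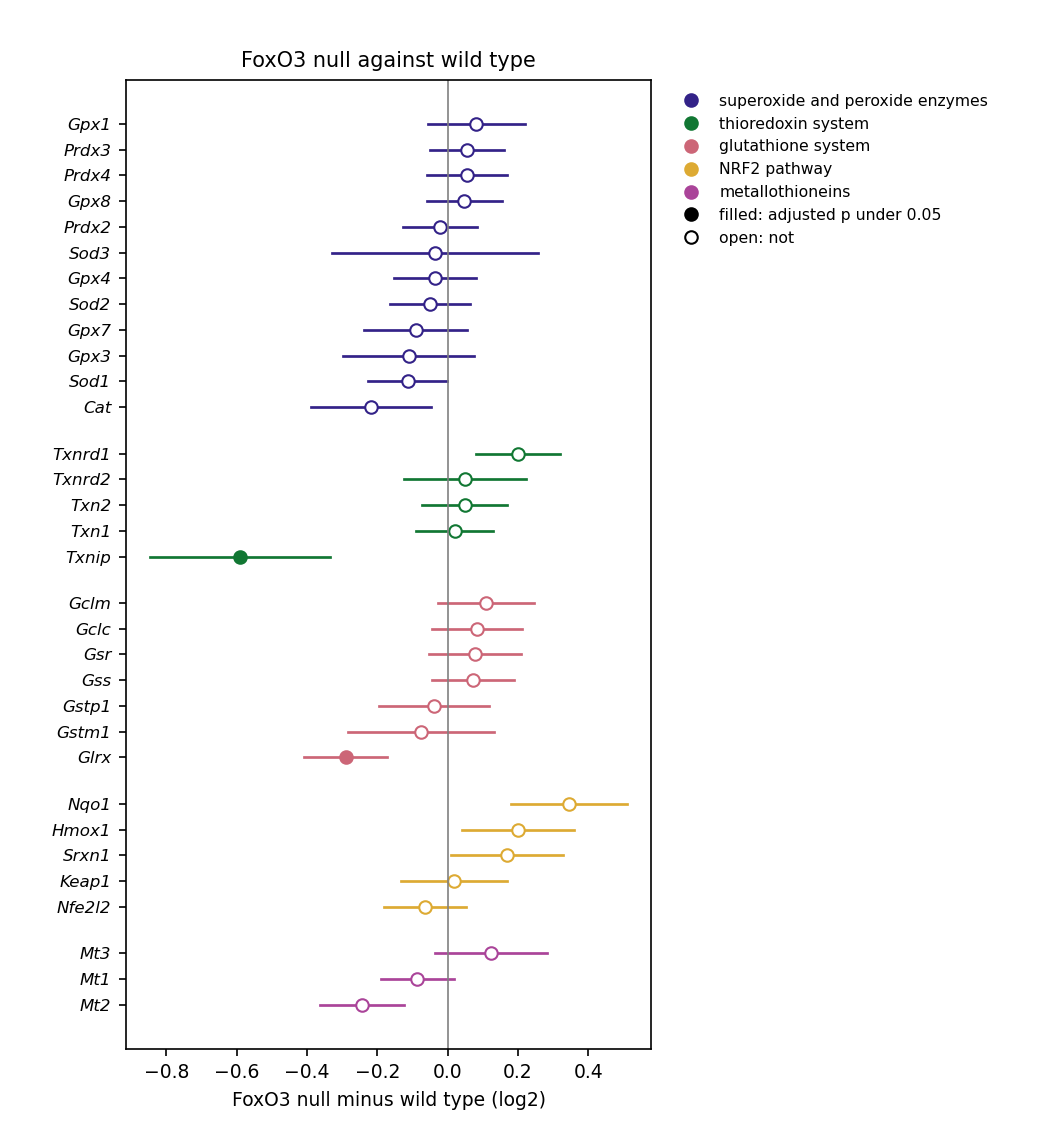
Log2 difference between FoxO3 null and wild type arrays for the 32 measured genes, grouped by role. Points are limma estimates over 4 arrays per genotype with set as a term, bars are 95% intervals, and filled points passed at an adjusted p under 0.05. Txnip (-0.59) and Glrx (-0.29) are the filled points, and Nqo1 (0.35) lies highest.

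Superoxide and peroxide enzymes were close to equal in the 2 genotypes, and 0 of 12 passed. At an unadjusted p under 0.05 there were 2, both lower (limma, 16.7% against 15.5% of all genes). Of the 12, 4 had positive and 8 negative fold changes, and the median log2 fold change was -0.04. Sod2, the mitochondrial superoxide dismutase and a known FoxO target, measured 11.76, 11.79, 11.59 and 11.60 in wild type arrays 1_1, 1_2, 2_1 and 2_2. In FoxO3 null arrays in the same order it measured 11.64, 11.80, 11.57 and 11.53. The groups overlap, and the difference was -0.05 ± 0.05 (SE, limma adjusted p = 0.718), with an interval from 0.892 to 1.05 of the wild type value. All 3 other Sod2 probe sets lay between -0.17 and 0.01 and did not pass.

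Cat, the peroxisomal peroxide enzyme catalase and another FoxO target, had the largest negative difference of the group. It measured 11.32, 11.15, 11.11 and 10.93 in wild type and 11.05, 11.15, 10.60 and 10.85 in FoxO3 null arrays. The groups overlap, with the lowest values in both FoxO3 null arrays of set 2. The difference was -0.22 ± 0.08 (SE, limma adjusted p = 0.21), with an interval from 0.764 to 0.968 of the wild type value. Its other probe set, 1416430_at, gave -0.06 ± 0.06 (adjusted p = 0.783 over all probe sets).

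Sod1, the cytosolic copper-zinc dismutase, had a difference of -0.11 ± 0.05 (SE, adjusted p = 0.319) in its brightest probe set, whose FoxO3 null arrays lay below the wild type arrays within each set. Its 4 other probe sets lay between -0.03 and 0.06. Among the peroxiredoxins, thioredoxin-dependent peroxidases, the mitochondrial Prdx3 had 0.06 ± 0.05, the endoplasmic reticulum enzyme Prdx4 0.05 ± 0.05 and the cytosolic Prdx2 -0.02 ± 0.05. The other probe sets of Prdx4 and Prdx2 had the opposite sign and did not pass. Those of Prdx4 lay between -0.24 and -0.06, and that of Prdx2, 1430979_a_at, gave 0.16 ± 0.07. Among the glutathione peroxidases, Gpx1, the cytosolic enzyme, had 0.08 ± 0.06 and Gpx4, which reduces lipid peroxides in membranes, -0.04 ± 0.05. The secreted Gpx3 had -0.11 ± 0.08, and Gpx7 and Gpx8, both of the endoplasmic reticulum, had -0.09 ± 0.07 and 0.05 ± 0.05. The extracellular dismutase Sod3 had -0.04 ± 0.13, an average over sets that went in opposite directions.

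In the thioredoxin system Txnip fell, 4 of 5 genes did not pass, and those 4 had positive differences. Txnip encodes a protein that binds and inhibits thioredoxin and also restrains glucose uptake. It measured 8.99, 8.73, 9.19 and 8.61 in wild type and 8.22, 8.28, 8.20 and 8.45 in FoxO3 null arrays. The groups did not overlap, and the wild type values were more spread (SD 0.26 against 0.11). The difference was -0.59 ± 0.12 (SE, limma adjusted p = 0.0339), 0.664 of the wild type value with an interval from 0.556 to 0.793. It was -0.61 in set 1 and -0.57 in set 2. The other probe set, 1415997_at, gave -0.24 ± 0.11 (adjusted p = 0.4 over all probe sets), with overlapping groups. Its difference was -0.03 in set 1, where the genotypes overlapped, and -0.46 in set 2. A similar fall in both sets was therefore seen only in the brightest probe set.

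The fall of Txnip kept its direction but not its call when arrays were left out. Leaving out wild type array 2_2 gave an adjusted p of 0.00971, and leaving out any 1 of the other 7 arrays gave values from 0.0527 to 0.129 (limma). When the mean level of 3 Y-linked genes (Eif2s3y, Kdm5d, Uty) entered the fit as a covariate, the difference was -0.34 (adjusted p = 0.822). That mean lay between 7.66 and 8.35 in wild type and between 6.88 and 8.09 in FoxO3 null arrays. It was lower in FoxO3 null arrays within each set (-0.27 in set 1 and -0.74 in set 2). Of the 3 genes 2 fell (limma adjusted p under 0.05). The covariate thus itself differed with genotype, and its part in the result was not tested. Among 16 hypoxia-inducible genes, 8 fell and 0 rose, and all 16 had negative differences. Their mean over the list lay between 10.87 and 11.08 in wild type and between 10.05 and 10.66 in FoxO3 null arrays, with a difference of -0.72 in set 1 and -0.41 in set 2. The neuron marker list also lay lower, between 7.29 and 7.40 in wild type and between 7.13 and 7.28 in FoxO3 null arrays, but only Gad1 passed (-0.91, limma adjusted p = 0.0015), 4 of its 8 genes were negative and the median difference was -0.02. For the means of both lists the exact permutation p was 0.0286, the smallest that 4 against 4 arrays allow. Of 7 oligodendrocyte lineage markers 3 fell, namely Pdgfra (-0.67), Cspg4 (-0.56) and Sox10 (-0.27). Another 3 had positive differences that did not pass, namely Mbp (0.44), Mog (0.24) and Olig1 (0.05). That of Mbp was 0.87 in set 1 and 0.01 in set 2. Of 8 astrocyte markers 1 fell, Slc1a2 (-0.84). The means of these lists overlapped between the genotypes, at 9.58 to 10.86 and 9.58 to 10.69 for the oligodendrocyte lineage and 9.67 to 10.13 and 9.55 to 9.97 for astrocytes. Of 8 neural stem and progenitor markers 1 rose, Nes (0.29), but 5 had negative differences. At an unadjusted p under 0.05, 1 of the 8 was higher and 3 were lower (limma). The mean of this list overlapped too, at 10.47 to 10.69 in wild type and 10.45 to 10.61 in FoxO3 null arrays. The part of these lists in the fall of Txnip and Glrx was not tested.

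Txnrd1, the cytosolic thioredoxin reductase, lay on the other side. It measured 11.58, 11.68, 11.70 and 11.70 in wild type and 11.85, 11.92, 11.80 and 11.89 in FoxO3 null arrays. Each FoxO3 null array lay above each wild type array, and the difference was 0.20 ± 0.05 (SE), but it did not pass over all genes (limma adjusted p = 0.109). It passed with a variance trend (adjusted p = 0.0142), and among genes above the median level (adjusted p = 0.0452). Of 22 alternatives, which include the main fit read at an adjusted p under 0.1, it passed in 3. Of 8 fits without 1 array it passed in 0 (limma adjusted p from 0.105 to 0.26). Nor did it pass with the Y-linked covariate. Both other probe sets of Txnrd1 had positive differences of 0.20 and 0.11. Txnrd2, the mitochondrial reductase, had 0.05 ± 0.08. The thioredoxins themselves, the cytosolic Txn1 and the mitochondrial Txn2, had 0.02 ± 0.05 and 0.05 ± 0.05 (SE), with intervals from 0.940 to 1.09 and from 0.951 to 1.12 of the wild type value.

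**Figure D2:**
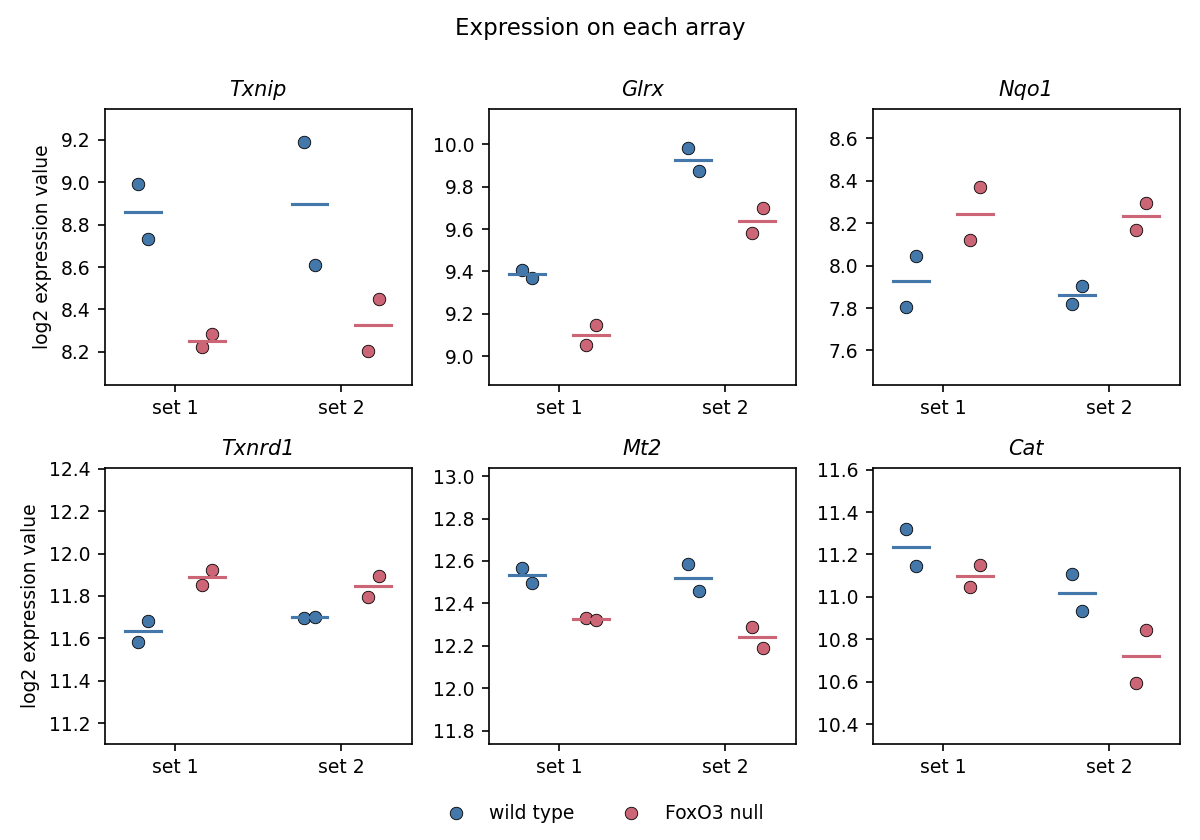
Log2 expression values of 6 genes on each array, by set, with wild type arrays in blue and FoxO3 null arrays in red. Points are arrays, lines are means of 2 arrays, and each panel spans the same range of log2 units. Txnip and Glrx lie lower in the FoxO3 null arrays of both sets, Nqo1 and Txnrd1 higher without passing the test, and the Cat groups overlap.

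In the glutathione system Glrx fell and 6 of 7 genes did not pass. Glrx encodes glutaredoxin, which uses glutathione to reduce disulfides between glutathione and protein. It measured 9.41, 9.37, 9.98 and 9.87 in wild type and 9.05, 9.15, 9.58 and 9.70 in FoxO3 null arrays. The 4 wild type values overlap the 4 FoxO3 null values because set 2 is brighter, but within each set both FoxO3 null arrays lay below both wild type arrays. The difference was -0.29 ± 0.05 (SE, limma adjusted p = 0.0266), 0.818 of the wild type value with an interval from 0.754 to 0.888. It was -0.29 in each set. The other Glrx probe set, 1416592_at, gave -0.21 ± 0.05 and did not pass over all probe sets (adjusted p = 0.126). Without wild type array 2_2 the adjusted p of Glrx was 0.0439, and without any 1 of the other 7 arrays it lay from 0.0503 to 0.0979 (limma). The Y-linked covariate gave -0.20 (adjusted p = 0.753).

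Enzymes that make or restore glutathione had small positive differences, and 0 of 4 passed (0 at an unadjusted p under 0.05). Gclc and Gclm, the catalytic and modifier subunits of the rate-limiting glutamate-cysteine ligase, had 0.08 ± 0.06 and 0.11 ± 0.06 (SE, limma adjusted p = 0.549 and 0.446). Gss, glutathione synthetase, had 0.07 ± 0.05, and Gsr, glutathione reductase, 0.08 ± 0.06. The intervals of all 4 included 1, and the highest upper bound was 1.19 of the wild type value, for Gclm. Gstm1 and Gstp1, transferases that couple glutathione to electrophiles, had -0.08 ± 0.09 and -0.04 ± 0.07.

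In the NRF2 pathway 0 of 5 genes passed, 4 had positive differences and the median was 0.17. At an unadjusted p under 0.05 there were 3, all higher (limma, 60% against 15.5% of all genes). Among 14 other NRF2 regulators and targets, part of the other redox list below, 1 had such a p and was lower (7.14%). Of these 14, 7 had positive and 7 negative differences, with a median of -0.02. Nqo1, a quinone reductase and a standard readout of NRF2, had the smallest p of the 5 pathway genes. It measured 7.81, 8.05, 7.82 and 7.90 in wild type and 8.12, 8.37, 8.17 and 8.29 in FoxO3 null arrays. Each FoxO3 null array lay above each wild type array, by 0.32 on average in set 1 and 0.37 in set 2. The difference was 0.35 ± 0.07 (SE, limma adjusted p = 0.0514), 1.27 of the wild type value with an interval from 1.13 to 1.42. It passed with the arrays quantile normalized again (adjusted p = 0.0426), without wild type array 1_2 (adjusted p = 0.0419) and without FoxO3 null array 1_1 (adjusted p = 0.0403). Of 22 alternatives it passed in 8, which include the main fit read at an adjusted p under 0.1. Of 8 fits without 1 array it passed in 2 (limma adjusted p from 0.0403 to 0.165). The highest adjusted p of the 22 was 0.659, and Nqo1 did not pass with the Y-linked covariate.

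Hmox1, the heme oxygenase, measured 8.33, 8.55, 8.71 and 8.61 in wild type and 8.46, 8.63, 9.01 and 8.90 in FoxO3 null arrays, a difference of 0.20 ± 0.07 (SE, limma adjusted p = 0.216). Srxn1, sulfiredoxin, which repairs overoxidised peroxiredoxins, measured 7.66, 7.62, 8.20 and 8.03 in wild type and 7.59, 7.84, 8.35 and 8.40 in FoxO3 null arrays. Its difference was 0.17 ± 0.07 (adjusted p = 0.295). For both genes the genotypes separated in set 2 and overlapped in set 1. The other Srxn1 probe sets had smaller differences, from 0.03 to 0.11, and their genotypes overlapped in both sets. Nfe2l2, which encodes NRF2, and its inhibitor Keap1 had differences of -0.06 ± 0.05 and 0.02 ± 0.07, with overlapping groups.

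Metallothioneins, whose genes lie side by side on chromosome 8, had differences of both signs, and 0 of 3 passed. At an unadjusted p under 0.05 there was 1, Mt2, lower (limma, 33.3% against 15.5% of all genes). Mt2 measured 12.57, 12.50, 12.59 and 12.46 in wild type and 12.33, 12.32, 12.29 and 12.19 in FoxO3 null arrays. The FoxO3 null values were all lower, and the difference was -0.24 ± 0.05 (SE, limma adjusted p = 0.0558). It passed with a variance trend (adjusted p = 0.00265). Of 22 alternatives it passed in 4, which include the main fit read at an adjusted p under 0.1. Of 8 fits without 1 array it passed in 0 (limma adjusted p from 0.0698 to 0.171). Nor did it pass with the Y-linked covariate. Mt1, the other widely expressed metallothionein, measured 13.50, 13.50, 13.53 and 13.46 in wild type and 13.42, 13.39, 13.44 and 13.40 in FoxO3 null arrays. The groups did not overlap, but the difference was only -0.09 ± 0.05 (adjusted p = 0.42). The other Mt1 probe set, 1451612_at, gave -0.15 ± 0.09 with overlapping groups (limma adjusted p = 0.564 over all probe sets). Mt3, the brain-enriched metallothionein, had 0.12 ± 0.07 (adjusted p = 0.457) and overlapping groups.

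Of the other genes of the redox pathways, a list of 63 of which 61 were measured, 0 passed, against 1.6% of all genes (limma). At an unadjusted p under 0.05 there were 12, 6 higher and 6 lower, which is 19.7% against 15.5% of all genes. With a variance trend 3 fell. Their median log2 fold change was 0.01, and 33 were positive. The smallest p was that of Sesn1, a sestrin and known FoxO target that counters oxidative stress and mTORC1. It measured 9.79, 9.79, 10.09 and 9.91 in wild type and 9.45, 9.68, 9.58 and 9.62 in FoxO3 null arrays. The genotypes did not overlap, FoxO3 null being lower, and the difference was -0.32 ± 0.07 (SE, adjusted p = 0.0565). The other sestrins did not pass and differed in sign, Sesn2 with 0.17 ± 0.06 (adjusted p = 0.217) and Sesn3 with -0.10 ± 0.06 (adjusted p = 0.418), both with overlapping groups. They are named here beside Sesn1 after their values were seen. The next smallest p was that of Selenop, the selenium carrier selenoprotein P, with -0.22 ± 0.06 (adjusted p = 0.111). By role, the smallest adjusted p was 0.149 among the 13 glutathione genes, 0.155 among the 6 genes of NADPH supply and 0.266 among the 14 NRF2 regulators and targets.

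The sets differed more than the genotypes in these genes, a comparison made after the data were seen. Of the 32, 17 differed between sets (53.1%, against 43.8% of all genes; limma adjusted p under 0.05), 14 higher and 3 lower in set 2. With the arrays quantile normalized again the split was 11 higher and 5 lower. Gpx3 differed most. It measured 8.82 and 8.61 in wild type and 8.67 and 8.77 in FoxO3 null arrays of set 1, and 10.13, 9.82, 9.70 and 9.78 in set 2. That is a difference of 1.14 ± 0.08 (SE), or 2.20-fold. Gpx7 was 2.02-fold higher in set 2 (1.01 ± 0.07), Srxn1 1.48-fold and Glrx 1.45-fold. By their brightest probe sets Cat (-0.29), Sod2 (-0.17) and Gsr (-0.16) were lower in set 2, but another probe set of each was higher there in the fit over all probe sets. These were 1416430_at of Cat with 0.28 (limma adjusted p = 0.00492), 1454976_at of Sod2 with 0.52 (adjusted p = 0.000435) and 1421816_at of Gsr with 0.69 (adjusted p = 3.1e-05). The direction of these 3 genes between sets therefore depends on the probe set. For Srxn1 2 other probe sets were higher in set 2 as well, and 1419942_at was lower (-0.23, adjusted p = 0.00882). The oligodendrocyte lineage list also differed, with array means of 9.58 to 9.69 in set 1 and 10.57 to 10.86 in set 2, and its part in these differences was not tested. The sources used here do not state whether both sets were normalized together, so culture and processing cannot be told apart.

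**Figure D3:**
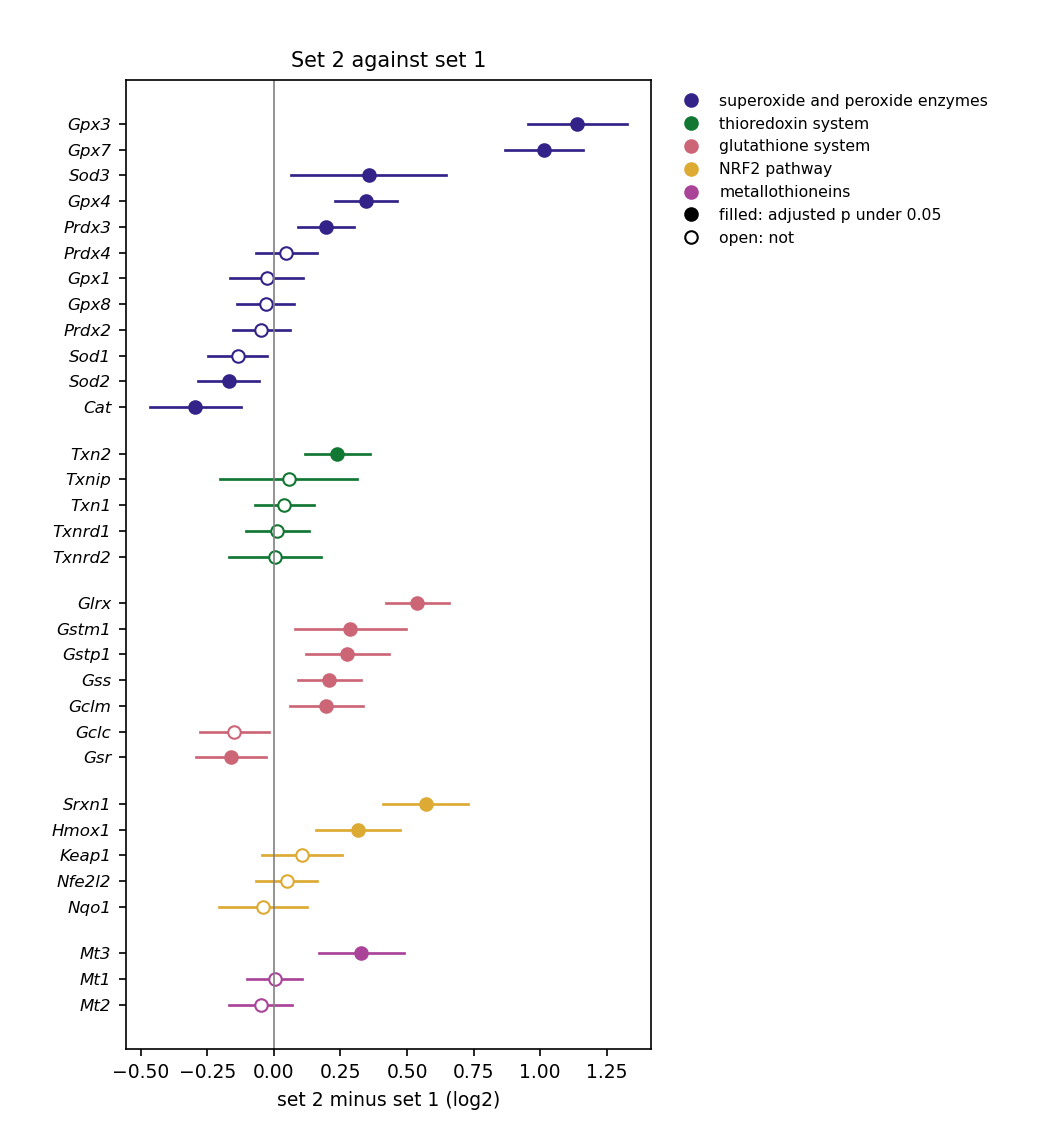
Log2 difference between set 2 and set 1 for the 32 measured genes, grouped by role. Points are limma estimates over 4 arrays per set with genotype as a term, bars are 95% intervals, and filled points passed at an adjusted p under 0.05. Gpx3 (1.14) and Gpx7 (1.01) lie farthest to the right and the brightest Cat probe set (-0.29) farthest to the left, while the other Cat probe set, which is not drawn, gave 0.28.

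Whether the genotype difference itself depended on the set was tested with an interaction term, and 0 of 32 passed (limma, 3 at an unadjusted p under 0.05; of all genes 0.187% passed and 8.7% had such an unadjusted p). Signs were the same in both sets for 22 of 32, and for 57.3% of all genes. In 3 of the 32 (9.38%, against 5.84% of all genes) the arrays of the genotypes separated in opposite directions in the sets. Gstm1 measured 11.20 and 11.25 in wild type and 11.33 and 11.47 in FoxO3 null arrays of set 1, but 11.78 and 11.74 against 11.39 and 11.49 in set 2. Gstp1 went from 12.43 and 12.51 to 12.56 and 12.58 in set 1, and from 12.89 and 12.89 to 12.62 and 12.79 in set 2. Sod3 went from 6.70 and 6.77 to 7.06 and 7.04 in set 1, and from 7.51 and 7.37 to 6.88 and 7.24 in set 2. In each case the 4 FoxO3 null arrays lay between the wild type arrays of the sets, which were low in set 1 and high in set 2.

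The interaction adjusted p was 0.17 for Gstm1, 0.17 for Sod3 and 0.5 for Gstp1. Gstm1 passed with a variance trend (adjusted p = 0.00728), and Sod3 without FoxO3 null array 2_2 (adjusted p = 0.043). For Gstm1 the opposite directions appeared in 3 of its 4 probe sets, and for Sod3 in 1 of 2. The brightest Gstm1 probe set, 1416416_x_at, is of a kind that can also bind related transcripts, here other mu class transferases.

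**Figure D4:**
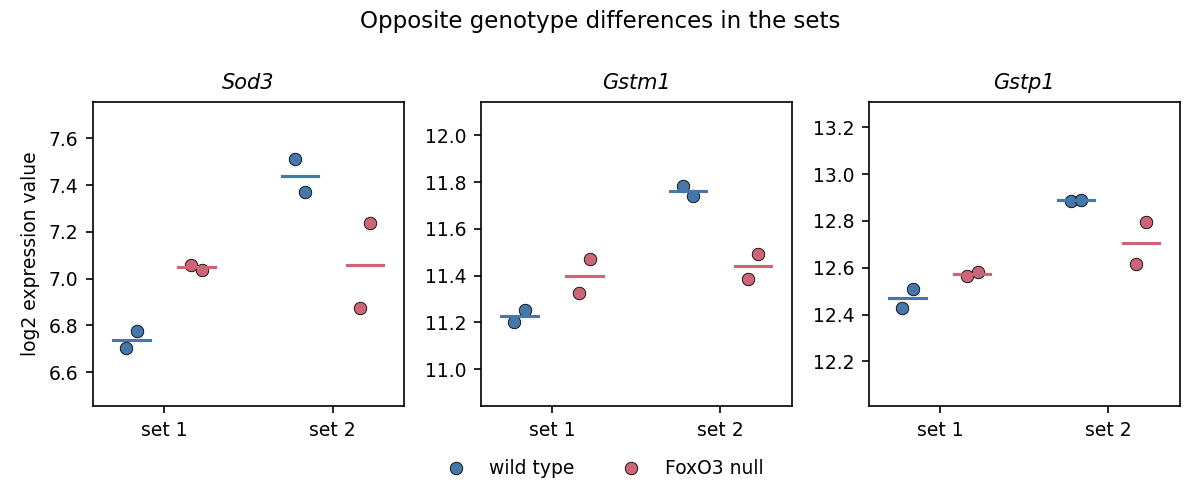
Log2 expression values of Sod3, Gstm1 and Gstp1 on each array, by set, with wild type arrays in blue and FoxO3 null arrays in red. Points are arrays, lines are means of 2 arrays, and each panel spans the same range of log2 units. FoxO3 null arrays lie above wild type arrays in set 1 and below them in set 2.

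Foxo3 lies on chromosome 10. Of the measured antioxidant and redox genes 2 lie there, Gpx4 and Txnrd1, and 0 within 20 megabases of Foxo3. Signs of RNA quality overlapped between the genotypes. The actin controls had a 3' signal above the 5' signal by 0.36 to 0.54 in wild type and by 0.33 to 0.49 in FoxO3 null arrays (two-sided exact permutation p = 0.514). The Gapdh controls gave -0.11 to -0.07 and -0.11 to -0.09 (exact permutation p = 0.114).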

How the data were processed

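The deposited values are log2 expression values, 1 column per array; the submitters' processing notes name RMA. RMA subtracts background, quantile normalizes arrays and summarises probes, so differences are relative to other genes and are compressed for dim probe sets. Its version and whether all 8 arrays were processed together are not given in the sources used here. Of 45101 probe sets, 64 controls were left out. The platform annotation gives 34945 probe sets 1 symbol, and the brightest of each gene over the 8 arrays stood for it, giving 18193 genes. The genotype test was limma's (version 3.58.1, R 4.3.3; lmFit and eBayes) two-sided, with an additive term for set, Benjamini-Hochberg over all genes, threshold 0.05. Differences are FoxO3 null minus wild type. Probe sets other than the brightest were read from a fit over 45037 probe sets. The script was tested on simulated data. All 35 listed genes, the Foxo3 probe sets and the 2 other redox genes with the smallest p were named by rule. Members and lists were chosen with earlier results of these data known. Precision is limited by having 8 arrays. Alternatives covered the set term, blocks, single sets, scaling, dim genes, the variance model, the threshold, probe set choice, a Y-linked covariate and each array left out.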

Additional observations from a re-analysis of the deposited data

Results flagged for a closer look

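In Gstm1, Sod3 and Gstp1 both FoxO3 null arrays of set 1 lay above that set's wild type arrays, and both of set 2 lay below theirs. The genotype difference in set 2 minus that in set 1 was -0.69 for Sod3, -0.49 for Gstm1 and -0.29 for Gstp1 on the log2 scale. The interaction test over all genes did not pass for any of the 3 (limma adjusted p = 0.17, 0.17 and 0.5). Looked at within genotypes, 0 of 64 combinations of gene and genotype held an array far from the other 3.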

How the results depend on the processing

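The count of 2 antioxidant and redox genes that passed depended on the fit. It was 0 in either set alone, without the set term, with the arrays of a set and genotype averaged and with the Y-linked covariate (limma, 4 to 9 at an unadjusted p under 0.05). It was 1 over all probe sets together, 4 at an adjusted p under 0.1, and 5 with a variance trend, above the median level and with set and genotype as a random block, whose estimated correlation was -0.229. Without 1 array it was 0 to 2. With a replicate block of set and number 1 passed, Nqo1 (adjusted p = 0.0307). Same-numbered arrays shared deviations with a correlation of 0.118 in set 1 and -0.11 in set 2, so the numbers were not taken as pairs. The median of the 32 genes was 0.0594 in set 1 and 0.0687 with the Y-linked covariate. Interaction calls were 1 with a variance trend and 0 to 1 without 1 array. Of the other redox genes 1 passed with repeated quantile normalization, above the median level, at 0.1 and by largest variance, 2 with the random block and with the Y-linked covariate (1 higher, 1 lower), 3 with a variance trend and 0 to 1 without 1 array. The cause of these changes was not tested. Of 703 single gene values under alternatives 31 changed sign, none of them in a gene that passed. Several alternatives, among them the random block, the variance trend and the threshold of 0.1, return the same estimates as the main fit. Their signs could not change, so this count does not measure stability.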
